A study of Mus musculus with 6 samples.

Results

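The genes described here write, remove or read chemical marks on chromatin, the complex of DNA and histone proteins: methyltransferases, demethylases, acetyltransferases and deacetylases acting on histones, the DNA methylation genes, and the corepressors and the histone chaperone that work with them. A fixed list of 48 symbols was matched to the probes by name, and 45 of the 48 were found among 787 probes, 1 probe per gene. The other 3 listed genes, *Hdac7*, *Ehmt1* and *Phf21a*, were not analysed here. Levels were measured in the hypothalamus of 3 *Fmr1* KO mice and 3 WT mice, all of them females in diestrus at 8 weeks of age. The *Fmr1* KO mice carry the Fmr1tm1Cgr allele on the FVB background, a constitutive null allele present in every cell. The WT mice are the congenic FVB controls, and breeding pairs of both came from the same supplier and were bred in-house. RNA of 1 mouse, 50 ng, was counted in 1 lane with the nCounter mouse neuroinflammation panel, in which colour-coded probes hybridize to each transcript and are counted without amplification. The comparison asks which transcripts differ in the hypothalamus of females that lack *Fmr1*, the gene encoding the RNA-binding protein FMRP.

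DNA is wound around histones, whose tails carry methyl and acetyl groups. Acetylation, placed by acetyltransferases and removed by deacetylases, and methylation of H3K4, placed by the SET1 and MLL enzymes, mark active promoters and enhancers. Methylation of H3K9 and H3K27 and of cytosines in CpG dinucleotides accompanies silenced genes. In neurons these enzymes are known for their part in activity-dependent transcription and in memory, and mutations in many of them cause intellectual disability in humans. In the hypothalamus, Polycomb proteins are known as repressors of genes that time puberty in female rodents.

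Total counts were 165514 to 339934 in the *Fmr1* KO lanes and 261019 to 303764 in the WT lanes, and no probe was at 0 in any lane. Normalized counts below are raw counts multiplied by the authors' lane factor, which was 0.767, 1.72 and 1.13 for *Fmr1* KO replicates 1, 2 and 3 and 0.922 to 0.997 for the WT lanes. *Fmr1* KO replicate 2 was thus the shallowest lane, with the largest factor. The *Fmr1* KO mice occupied lanes 4 to 6 and the WT mice lanes 1 to 3, so genotype and lane cannot be told apart. *Fmr1* itself was not analysed here, and the genotype labels were therefore not checked on the targeted transcript. The 16 hypothalamic genes that were listed to check the tissue, peptide genes and the histidine decarboxylase gene *Hdc*, all passed the count minimum. Of these, 2 had an adjusted p under 0.05 in edgeR, and 4 were higher and 6 lower at an unadjusted p under 0.05, against 5.66% and 2.83% of all tested probes. Their summed normalized counts were 13993 to 21321 in *Fmr1* KO mice and 14372 to 14503 in WT mice. Abundant in that sum was *Avp*, with 5295, 3332 and 8701 in *Fmr1* KO mice and 3152, 2799 and 3690 in WT mice. *Oxt* had 5202, 3443 and 4454 in *Fmr1* KO mice and 1794, 3335 and 2483 in WT mice. *Hcrt*, the orexin gene of the lateral hypothalamus, had 595, 378 and 1384 normalized counts in *Fmr1* KO mice, against 669, 522 and 564 in WT mice. Whether the dissections took in the same nuclei was not tested. The tissue was a bulk dissection, in which fewer cells of a type and less RNA per cell cannot be told apart.

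No chromatin gene passed the test between the genotypes, and most of their fold changes were small. Of the 45 genes, 43 had a raw count above 20 in at least 3 of the 6 lanes and were tested among 601 probes, and *Kdm3b* and *Dnmt3b* were below that minimum. None of the 43 had an adjusted p under 0.05 in edgeR's quasi-likelihood test, where the smallest adjusted p was 0.587, against 5 (0.832%) of all tested probes, 0.499% higher and 0.333% lower. At an unadjusted p under 0.05, 1 gene was higher (*Setd7*) and 1 was lower (*Crebbp*) in *Fmr1* KO mice, 2 of 43 in all, against 5.66% higher and 2.83% lower, together 8.49%, of all tested probes. DESeq2 also called none and had none at an unadjusted p under 0.05, limma called none and had the same 2 genes, and the methods' t-test called none after adjustment and had 3 higher and 2 lower genes before it. Which genes were under an unadjusted p of 0.05 depended on single mice. They were *Dot1l*, *Kat2b*, *Kdm2b*, *Setd1b* and *Setd7* without *Fmr1* KO replicate 1, *Hira* and *Setdb1* without *Fmr1* KO replicate 2, *Crebbp* and *Hdac2* without *Fmr1* KO replicate 3, *Dot1l* without WT replicate 1, and none without WT replicate 2 or WT replicate 3.

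The median log2 fold change (*Fmr1* KO over WT) of the 43 genes was -0.02, with a range of -0.16 to 0.41, and that of all 601 tested probes was 0.01. Of the 43, 20 lay above 0, a share of 46.5%, against 52.7% of all tested probes. In 3 genes, *Setd7*, *Setd1a* and *Ezh2*, all *Fmr1* KO mice were above all WT mice, against 6.82% of all tested probes. In 4 genes, *Crebbp*, *Kmt2a*, *Suv39h1* and *Mbd3*, all *Fmr1* KO mice were below all WT mice, and the share among all tested probes was again 6.82%. Both directions together gave 16.3% of the chromatin genes and 13.6% of all tested probes. The summed normalized counts of the 43 genes were 12954 to 14456 in *Fmr1* KO mice and 14110 to 14371 in WT mice, so the WT range lay inside the *Fmr1* KO range. *Setd1a*, *Setd7*, *Ezh2* and *Mbd3* are among the genes that the study picked for display from these same samples, so their values here are not independent evidence of a direction.

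**Figure D1:**
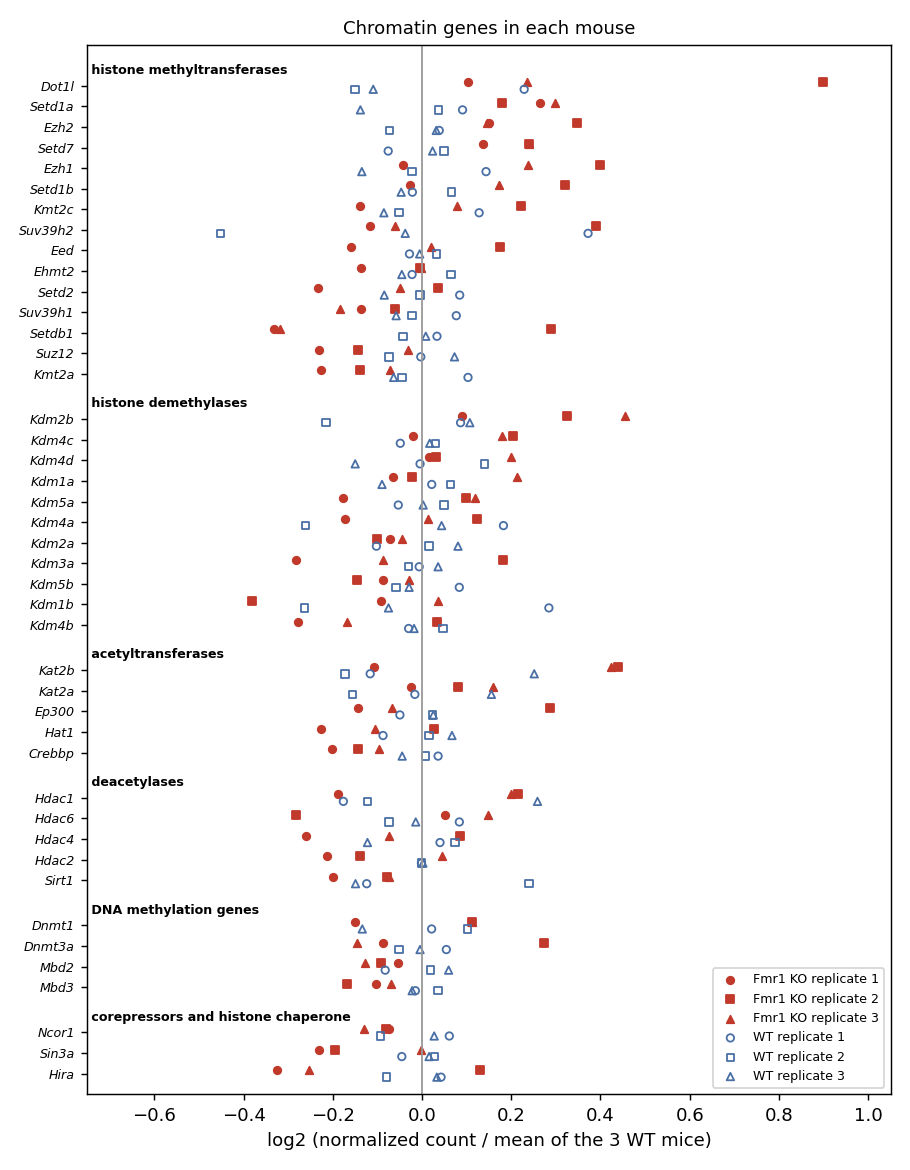
Normalized count of each tested chromatin gene in each mouse, as log2 over the mean of the 3 WT mice, on the x axis, with genes grouped by role down the page. Filled red symbols are the *Fmr1* KO mice and open blue symbols the WT mice, with 1 shape per replicate, and in 7 of the 43 genes the groups do not overlap.

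The promoters of *Setd7* and *Crebbp* are shown because these were the only tested chromatin genes under an unadjusted p of 0.05, and because they differ in CpG density. Both are taken from RefSeq (GRCm38.p6) and run through the 250 bases before the first listed transcription start, 5′ to 3′ along the gene, with CpG dinucleotides (CG), the substrate of DNA methyltransferases, in capitals. *Setd7* lies on the minus strand at chr3:51560824-51561073, and *Crebbp* on the minus strand at chr16:4213405-4213654.
Setd7: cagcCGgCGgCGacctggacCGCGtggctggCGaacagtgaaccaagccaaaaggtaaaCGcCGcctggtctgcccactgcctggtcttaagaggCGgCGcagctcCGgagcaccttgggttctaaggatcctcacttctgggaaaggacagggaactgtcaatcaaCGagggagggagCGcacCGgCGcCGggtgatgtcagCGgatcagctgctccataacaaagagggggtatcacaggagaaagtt
Crebbp: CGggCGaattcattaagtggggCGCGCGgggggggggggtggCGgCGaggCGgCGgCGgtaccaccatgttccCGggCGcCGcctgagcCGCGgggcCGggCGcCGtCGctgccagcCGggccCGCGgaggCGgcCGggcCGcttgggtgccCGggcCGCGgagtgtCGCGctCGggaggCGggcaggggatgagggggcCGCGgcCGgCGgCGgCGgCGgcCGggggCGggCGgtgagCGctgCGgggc
The *Setd7* stretch holds 17 CG dinucleotides at 60.4% G and C, and the *Crebbp* stretch holds 44 at 84.0% G and C. In windows of 300 bases (250 before to 50 after the start), found for 38 of the 45 genes, the median number of CG dinucleotides was 27 for the chromatin genes, 16 for the 617 matched genes of the panel and 7 for 27025 mouse promoters. At least 1 CG was present in 97.4% of the chromatin gene windows and 94.2% of all windows. A window was counted as CpG-rich at a G and C content of at least 55% and an observed over expected CG ratio of at least 0.65. By that definition 71.1% of the chromatin genes were CpG-rich (27 of 38), against 42.9% of the panel and 28.5% of all promoters, a difference given as a description without a test. The nCounter assay does not measure methylation, and none was compared here.

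Histone methyltransferases numbered 16 on the list and 15 among the tested genes. Of these, 9 had a log2 fold change above 0 and 6 below, 8 and 7 when lanes were scaled by TMM or by median ratios, with a median of 0.04, and none passed the adjusted test. The H3K4 enzymes had a median of 0.15, with 4 of 5 above 0 under each scaling. *Setd7* encodes an enzyme that places a single methyl group on H3K4 and also methylates non-histone proteins. It had 289, 311 and 311 normalized counts in *Fmr1* KO replicates 1, 2 and 3, against 249.5, 272 and 267 in WT replicates 1, 2 and 3. The lowest *Fmr1* KO mouse was above the highest WT mouse, and the group means were 303 ± 12.5 in *Fmr1* KO and 263 ± 11.9 in WT (SD, n = 3 each). Its fold was 1.15 with a 95% interval of 1.00 to 1.32, a log2 fold change of 0.20 ± 0.09 (SE, adjusted p = 0.587 in edgeR). *Setd1a* encodes the catalytic subunit of a COMPASS complex that trimethylates H3K4 at promoters. It had 136, 129 and 139.6 normalized counts in *Fmr1* KO mice, against 121, 117 and 103 in WT mice. Here too the groups did not overlap, with a log2 fold change of 0.25 ± 0.13 (SE, adjusted p = 0.636 in edgeR). Its close relative *Setd1b* had a log2 fold change of 0.15 (95% interval of the fold 0.940 to 1.31), with overlapping groups.

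*Kmt2a*, encoding the MLL1 enzyme that keeps homeobox and neuronal genes active, was the H3K4 enzyme below 0. It had 455, 484 and 507 normalized counts in *Fmr1* KO mice, against 572, 516 and 509.8 in WT mice. All *Fmr1* KO mice were below all WT mice, although *Fmr1* KO replicate 3 and WT replicate 3 nearly met, with a log2 fold change of -0.15 ± 0.08 (SE, adjusted p = 0.719 in edgeR). Without WT replicate 1 it was -0.09. *Kmt2c* encodes MLL3, which monomethylates H3K4 at enhancers, and had a log2 fold change of 0.05 (95% interval of the fold 0.870 to 1.23). The ratio of *Kmt2c* to *Kmt2a* counts within a lane needs no lane factor. It was 0.588, 0.709 and 0.613 in *Fmr1* KO mice and 0.562, 0.550 and 0.544 in WT mice, without overlap. This ratio was 1 of 8 between related genes that were computed after their values had been seen, so it was not tested, and in the 7 other pairs the groups overlapped. Those were *Ezh2* over *Ezh1*, *Ep300* over *Crebbp*, *Hdac1* over *Hdac2*, *Dnmt3a* over *Dnmt1*, *Kat2b* over *Kat2a*, *Setd1b* over *Setd1a*, and *Kdm5b* over *Kdm5a*.

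The 4 genes of Polycomb repressive complex 2, which methylates H3K27, differed among themselves in direction. *Ezh2*, the catalytic subunit typical of dividing cells, had 157, 180.2 and 157 normalized counts in *Fmr1* KO mice, against 145, 135 and 145 in WT mice. The *Fmr1* KO mice lay above the WT mice without overlap, and the means were 165 ± 13.5 in *Fmr1* KO and 142 ± 6.08 in WT (SD, n = 3 each), which gave a log2 fold change of 0.21 ± 0.12 (SE, adjusted p = 0.719 in edgeR). *Ezh1*, the alternative catalytic subunit found in mature neurons, had a log2 fold change of 0.19 with overlapping groups (95% interval of the fold 0.894 to 1.45). *Suz12*, a core subunit that holds the complex together, lay on the other side of 0. It had 454, 482 and 521 normalized counts in *Fmr1* KO mice, against 532, 506 and 560.5 in WT mice, a log2 fold change of -0.14 ± 0.08 (SE, adjusted p = 0.726 in edgeR). The *Suz12* groups overlapped through *Fmr1* KO replicate 3 and WT replicate 2, and without *Fmr1* KO replicate 1 the log2 fold change was -0.08. *Eed*, the subunit that binds the methylated histone, had a log2 fold change of 0.01, and it lay on the other side of 0 when lanes were scaled by TMM or median ratios (-0.01 in both).

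The H3K9 methyltransferases, which place the mark of heterochromatin, had a median log2 fold change of -0.09, with 3 of 4 below 0 under each scaling. *Suv39h1*, a trimethylating enzyme of pericentromeric heterochromatin, had 353, 372 and 342 normalized counts in *Fmr1* KO mice, against 409.9, 383 and 373 in WT mice. The highest *Fmr1* KO mouse and the lowest WT mouse lay side by side without overlap, with a log2 fold change of -0.13 ± 0.08 (SE, adjusted p = 0.740 in edgeR). Its paralog *Suv39h2* was at raw counts of 41, 26 and 29 in *Fmr1* KO mice and 47, 25 and 36 in WT mice, where counting error alone was 17.2% of the level. *Ehmt2*, encoding the G9a enzyme that dimethylates H3K9 in euchromatin, had one of the narrowest intervals (fold 0.967, 0.869 to 1.08). *Setdb1*, whose enzyme silences retroelements, had 88.2, 136 and 89.0 normalized counts in *Fmr1* KO mice, against 114, 108 and 112 in WT mice. Its *Fmr1* KO mice lay on both sides of the WT mice, with replicate 2 above all of them and replicates 1 and 3 below.

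*Dot1l* encodes the methyltransferase of H3K79, a mark of transcribed gene bodies, and had the most positive log2 fold change of the 43 genes. It had 106, 184 and 116 normalized counts in *Fmr1* KO mice, against 115, 88.7 and 91.3 in WT mice. *Fmr1* KO replicate 2 stood apart from all other mice, whereas *Fmr1* KO replicate 1 was below WT replicate 1. The means were 135 ± 42.3 in *Fmr1* KO and 98.4 ± 14.7 in WT (SD, n = 3 each), which gave a log2 fold change of 0.41 ± 0.21 (SE, adjusted p = 0.636 in edgeR). Without *Fmr1* KO replicate 2 the log2 fold change was 0.17. *Setd2*, encoding the enzyme that trimethylates H3K36 behind elongating polymerase, had a log2 fold change of -0.08 with overlapping groups.

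Histone demethylases are of 2 kinds, the flavin-dependent amine oxidases *Kdm1a* and *Kdm1b* and the JmjC enzymes, which use iron and oxoglutarate. Of 12 listed genes 11 were tested, 5 above and 6 below 0 (4 and 7 under TMM or median-ratio scaling), with a median log2 fold change of -0.02. In all 11 the groups overlapped. *Kdm2b*, which binds unmethylated CpG islands, removes methyl groups from H3K36 and recruits a Polycomb complex, had 87.4, 103 and 113 normalized counts in *Fmr1* KO mice, against 87.2, 70.8 and 88.5 in WT mice. *Fmr1* KO replicate 1 lay within the WT range and the other 2 above it, a log2 fold change of 0.28 ± 0.16 (SE, adjusted p = 0.719 in edgeR). Its paralog *Kdm2a* was at a log2 fold change of -0.07, on the other side of 0. The remaining JmjC genes with a value above 0 were *Kdm4c* (0.12), *Kdm4d* (0.08), both of which encode H3K9 demethylases, and *Kdm5a* (0.01), an H3K4 demethylase. *Kdm4d* was at -0.11 once the background of each lane was subtracted, and *Kdm5a* was marginally below 0 under TMM and median-ratio scaling. Those below 0 were *Kdm4a* (-0.02), *Kdm3a* (-0.07), *Kdm5b* (-0.08) and *Kdm4b* (-0.14). These 7 genes had adjusted p values of 0.766 to 0.990 in edgeR. *Kdm1a*, encoding LSD1, which removes methyl groups from H3K4 within the CoREST repressor complex, had 674 ± 71.6 normalized counts in *Fmr1* KO and 652 ± 35.4 in WT mice (SD, n = 3 each), a fold of 1.03 with a 95% interval of 0.900 to 1.18. *Kdm1b*, encoding LSD2, had a log2 fold change of -0.12 with a wider interval of 0.684 to 1.24 for the fold.

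Among the 5 acetyltransferase genes, 3 lay above and 2 below 0 under each scaling, with a median log2 fold change of 0.02. *Crebbp* encodes CBP, the coactivator that acetylates histones at enhancers when CREB is phosphorylated. It had 1202, 1253 and 1295 normalized counts in *Fmr1* KO mice, against 1418, 1390.4 and 1341 in WT mice. All *Fmr1* KO mice were below all WT mice, and the means were 1250.0 ± 46.5 in *Fmr1* KO and 1383 ± 39.0 in WT (SD, n = 3 each). The fold was 0.903 with a 95% interval of 0.817 to 0.998, a log2 fold change of -0.15 ± 0.07 (SE, adjusted p = 0.587 in edgeR). *Ep300*, encoding the closely related coactivator p300, had 343, 462 and 361 normalized counts in *Fmr1* KO mice, against 366, 385 and 385 in WT mice. Its *Fmr1* KO mice surrounded the WT mice, and the log2 fold change was 0.02. *Kat2b*, encoding the PCAF enzyme of the SAGA and ATAC coactivator complexes, had 139, 203 and 200.4 normalized counts in *Fmr1* KO mice, against 138, 133 and 178 in WT mice. *Fmr1* KO replicate 1 was at the level of WT replicate 1 and the other 2 were above all WT mice (log2 fold change 0.25, edgeR adjusted p = 0.765). *Kat2a*, its GCN5 counterpart in the same complexes, was at 0.07, and *Hat1*, which acetylates newly made histone H4, was at -0.11.

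The deacetylase genes had a median log2 fold change of -0.09, with 4 of 5 below 0 under each scaling and overlapping groups in all 5. *Hdac2*, encoding a catalytic subunit of the Sin3, NuRD and CoREST repressor complexes that is abundant in neurons, had the smallest p of them. It had 610.2, 642 and 729.6 normalized counts in *Fmr1* KO mice, against 706, 707 and 708 in WT mice. The WT mice were nearly equal, and the *Fmr1* KO mice ranged from below to above them, a log2 fold change of -0.10 ± 0.08 (SE, adjusted p = 0.800 in edgeR). Without *Fmr1* KO replicate 1 it was -0.04, and without *Fmr1* KO replicate 3 it was -0.18. *Hdac1*, its partner in those complexes, was on the other side of 0 at 0.07. *Hdac4*, whose product shuttles between nucleus and cytoplasm with neuronal activity, was at -0.09, and *Hdac6*, whose product deacetylates tubulin, at -0.00. *Sirt1*, the NAD-dependent deacetylase, had a log2 fold change of -0.12. WT replicate 2 was its highest mouse, at 246 normalized counts, above all *Fmr1* KO mice.

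Of the 5 DNA methylation genes 4 were tested, 2 above and 2 below 0 (1 and 3 under TMM or median-ratio scaling), with a median log2 fold change of -0.04. *Dnmt1*, encoding the maintenance methyltransferase, and *Dnmt3a*, encoding the de novo enzyme of postnatal neurons, had intervals on both sides of a fold of 1. *Dnmt1* had 183, 219.7 and 219.6 normalized counts in *Fmr1* KO mice, against 206, 218 and 185 in WT mice, a fold of 1.01 with a 95% interval of 0.844 to 1.22. *Dnmt3a* had 257, 329.6 and 247 normalized counts in *Fmr1* KO mice, against 283, 263 and 272 in WT mice, a fold of 1.01 (0.841 to 1.21). In both genes the *Fmr1* KO mice spread around the WT mice, and *Dnmt3a* was marginally below 0 under TMM and median-ratio scaling. *Mbd3* encodes a subunit of the NuRD complex that is related to the methyl-CpG readers. It had 496, 474 and 508 normalized counts in *Fmr1* KO mice, against 527, 546 and 525 in WT mice. All *Fmr1* KO mice were below all WT mice, with means of 493 ± 17.3 in *Fmr1* KO and 533 ± 11.8 in WT (SD, n = 3 each) and a log2 fold change of -0.11 ± 0.07 (SE, adjusted p = 0.740 in edgeR). *Mbd2*, the methyl-CpG reader that takes the place of *Mbd3* in other NuRD complexes, was at -0.09 with overlapping groups.

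All 3 corepressor and chaperone genes had values below 0 under each scaling, with a median log2 fold change of -0.14, and in all 3 the groups overlapped. *Sin3a*, the scaffold on which Hdac1 and Hdac2 are brought to repressed promoters, had 174, 179 and 204 normalized counts in *Fmr1* KO mice, against 198, 208 and 206 in WT mice. *Fmr1* KO replicates 1 and 2 were below all WT mice and replicate 3 within their range, a log2 fold change of -0.14 ± 0.11 (SE, adjusted p = 0.787 in edgeR). Without *Fmr1* KO replicate 1 it was -0.09, and without *Fmr1* KO replicate 3 it was -0.21. *Ncor1*, the corepressor of unliganded nuclear receptors, was at -0.10 with a 95% interval of 0.827 to 1.06 for the fold. *Hira*, the chaperone that deposits a histone H3 variant outside of replication, had the most negative log2 fold change of the 43 genes, -0.16. It had 199, 273 and 209 normalized counts in *Fmr1* KO mice, against 257, 236 and 255 in WT mice. Its *Fmr1* KO mice lay on both sides, replicate 2 above all WT mice and the other 2 below them.

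**Figure D2:**
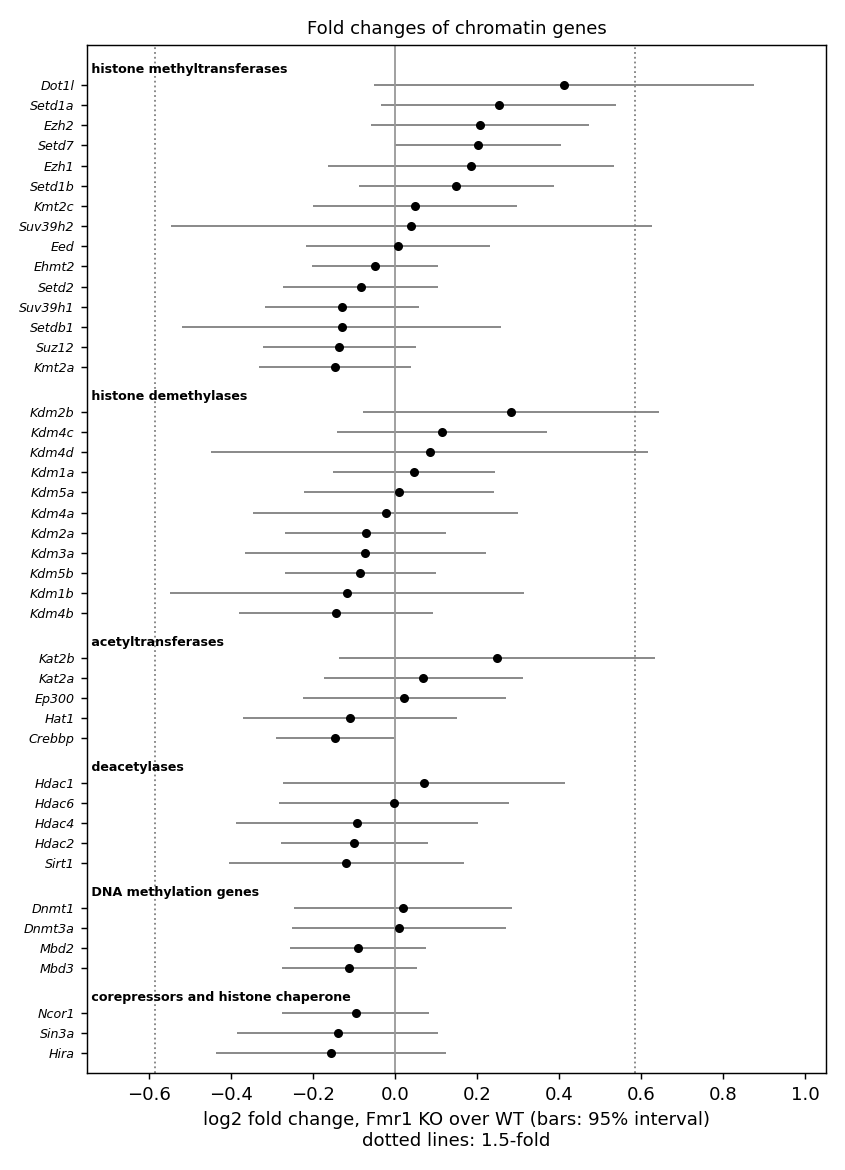
Log2 fold change of *Fmr1* KO over WT (points) with its 95% interval from edgeR (bars) for the 43 tested chromatin genes, grouped by role. Dotted lines mark a 1.5-fold change in either direction, and the bars of 38 genes lie between them.

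Counting error and the spread between mice together set how small a difference could have been seen. For 38 of the 43 genes (88.4%) the 95% interval lay within a 1.5-fold change in either direction, against 66.9% of all tested probes. For 5 (11.6%) it lay within a 1.2-fold change, against 17.6% of all tested probes. The median over the chromatin genes of the mean raw count was 240.2, against 149.8 for all tested probes. Counting error alone amounted to a median of 7.09% in *Fmr1* KO and 6.16% in WT mice for the chromatin genes, against 8.73% in *Fmr1* KO and 7.96% in WT mice for all tested probes. The 5 genes whose interval reached 1.5-fold were *Dot1l* (up to 1.83), *Kdm2b* (up to 1.56), *Kat2b* (up to 1.55), *Suv39h2* (0.685 to 1.54) and *Kdm4d* (0.733 to 1.53). For these 5 genes a change of that size could not be told from none at this depth and number of mice.

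**Figure D3:**
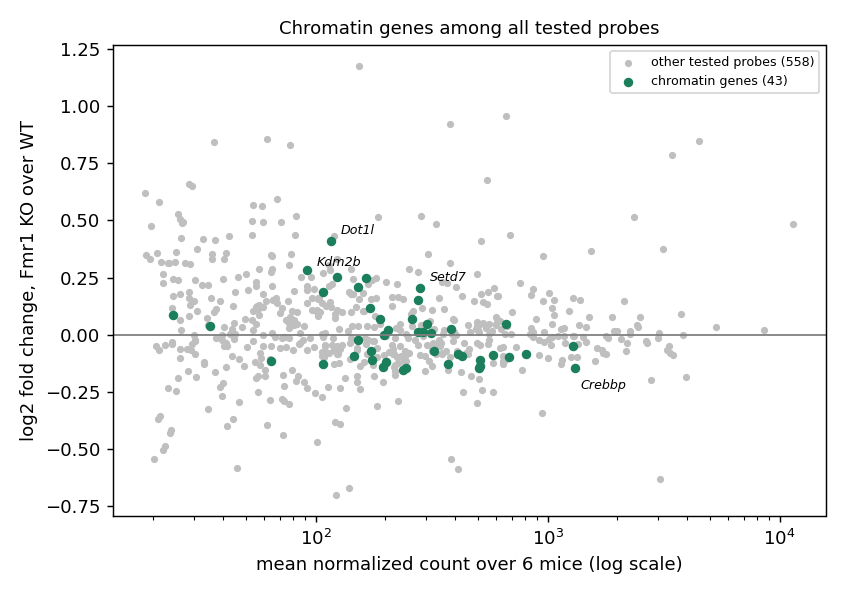
Log2 fold change of *Fmr1* KO over WT (y axis) against the mean normalized count over the 6 mice (x axis, log scale) for 43 chromatin genes in green and 558 other tested probes in grey. The chromatin genes lie between -0.16 and 0.41, while all tested probes span -0.70 to 1.18.

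At the low end of the panel the readings of chromatin genes met those of probes that should find no transcript. The Y-linked genes *Kdm5d*, an H3K4 demethylase, and *Uty*, a relative of the H3K27 demethylase *Kdm6a*, served as that floor in female mice. *Kdm5d* had raw counts of 8, 6 and 3 in *Fmr1* KO mice and 14, 14 and 11 in WT mice, and *Uty* had 25, 11 and 22 in *Fmr1* KO mice and 22, 9 and 21 in WT mice. A Y-linked probe thus passed the count minimum, since *Uty* was above 20 in 4 lanes. *Kdm3b*, an H3K9 demethylase, had raw counts of 14, 23 and 17 in *Fmr1* KO mice and 18, 16 and 19 in WT mice. *Dnmt3b*, the de novo methyltransferase used mainly in early development, had 10, 14 and 10 in *Fmr1* KO mice and 14, 10 and 17 in WT mice. Both lay within the range of the Y-linked probes and were not compared between genotypes. *Kdm4d*, expressed mainly in testis, was tested at raw counts of 31, 14 and 24 in *Fmr1* KO mice and 25, 26 and 23 in WT mice, which also overlapped the *Uty* readings, so its fold change cannot be told apart from that of background readings. *Suv39h2* was at or above the highest *Uty* count in every lane.

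**Figure D4:**
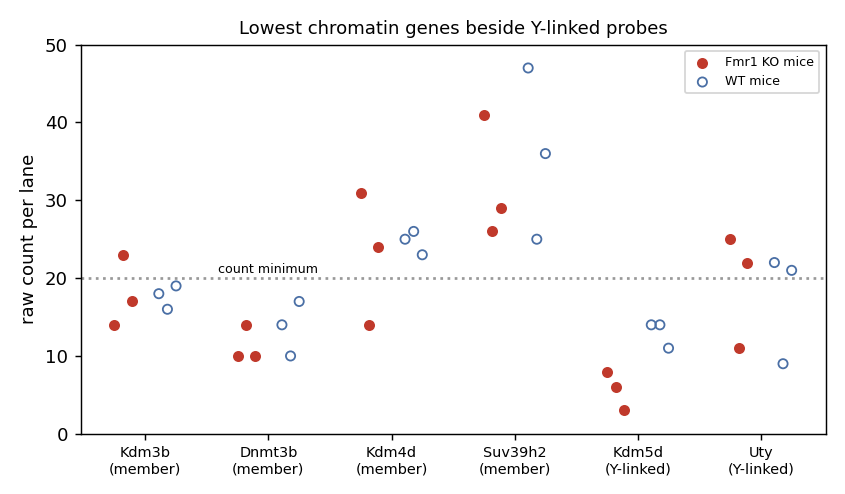
Raw counts per lane (y axis) of the 4 chromatin genes with the lowest counts and of the Y-linked probes *Kdm5d* and *Uty*, with *Fmr1* KO mice as filled red points left of the WT mice as open blue points. The dotted line is the count minimum of 20, and *Kdm3b*, *Dnmt3b* and *Kdm4d* share the range of *Uty*, 9 to 25, in most lanes.

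The spread between mice was described per genotype, without a test. The median coefficient of variation over the 43 genes was 10.1% in *Fmr1* KO mice and 5.41% in WT mice, and over all tested probes 12.1% in *Fmr1* KO mice and 9.06% in WT mice. The coefficient was larger in *Fmr1* KO mice for 28 of the 43 genes (65.1%), and for 63.6% of all tested probes. *Fmr1* KO replicate 1 was the highest of the 6 mice for none of the 43 genes and the lowest for 20 (46.5%), and over all tested probes it was the highest for 4.33% and the lowest for 36.6%. Its median log2 value over the WT mean was -0.14, against -0.09 over all tested probes. *Fmr1* KO replicate 2 was the highest mouse for 16 of the 43 (37.2%), near the 36.4% of all tested probes. Its median was 0.18 for the 21 chromatin genes with a mean raw count below 240.2 and -0.01 for the 22 at or above it. *Fmr1* KO replicate 3 was split in the same way, at 0.11 and -0.04, so in both mice the positive offset stood in the low-count genes. The 143 lowest probes of the panel, scaled by the lane factor, were at a mean of 18.5 in *Fmr1* KO replicate 2, 8.44 and 9.33 in the other *Fmr1* KO mice and 9.49 to 9.66 in WT mice. After the background of each lane was subtracted the median of the lower-count genes in replicate 2 was 0.08, and it was the highest mouse for 11 of the 43 genes (25.6%), against 23.3% of all tested probes. In replicate 3 that median was 0.12, and it was the highest mouse for 12 of the 43 genes (27.9%), against 25.1% of all tested probes. The cause of these offsets was not tested.

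**Figure D5:**
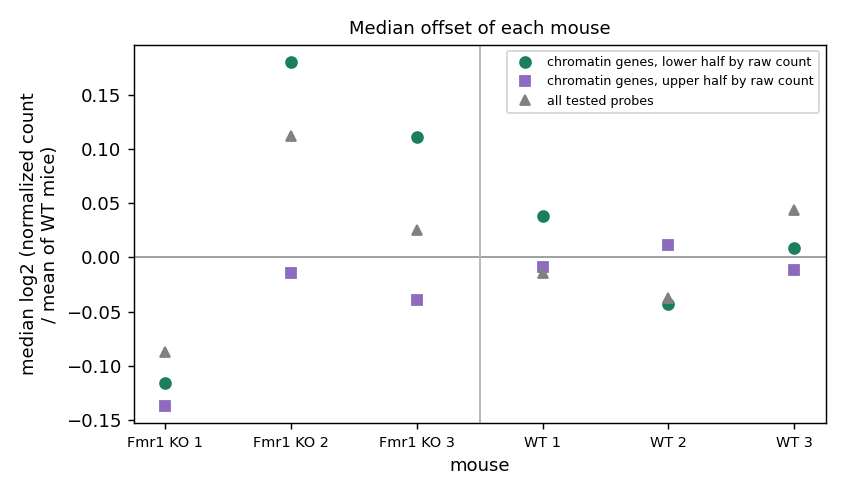
Median log2 of the normalized count over the WT mean (y axis) in each mouse, *Fmr1* KO mice on the left and WT mice on the right of the line. Circles are the 21 chromatin genes with the lower raw counts, squares the 22 with the higher ones and triangles all 601 tested probes. *Fmr1* KO replicate 2 has its circle at 0.18 and its square at -0.01, and *Fmr1* KO replicate 3 at 0.11 and -0.04.

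Other genes of the same pathways were read from a list of 91, of which 14 are reported here, all of them tested. These were the X-linked demethylases *Kdm5c* and *Kdm6a*, the H3K4 complex subunits *Ash2l* and *Wdr5*, the Polycomb genes *Bmi1* and *Jarid2*, the bromodomain readers *Brd2* and *Brd3*, the 5-methylcytosine oxidase *Tet1*, the remodelling genes *Smarca4*, *Smarca5*, *Smarcd1* and *Arid1a*, and the histone gene *H2ax*. None had an adjusted p under 0.05 in edgeR and none an unadjusted p under 0.05, with 7 log2 fold changes above 0 and 7 below, a median of -0.03 and a range of -0.12 to 0.18. *Smarcd1*, a subunit of the BAF remodelling complex, had 158, 146 and 148 normalized counts in *Fmr1* KO mice, against 141, 121 and 139 in WT mice. *Arid1a*, which targets that complex to DNA, had 345, 350.2 and 323 normalized counts in *Fmr1* KO mice, against 359, 354 and 366 in WT mice. These were the 2 genes of the 14 whose groups did not overlap, beside 13.6% of all tested probes, and they lay in opposite directions.

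Summed levels of cell type markers are given beside these values, and their part in the values was not tested. Of the myelin and oligodendrocyte list 20 of 26 genes were on the panel and 19 tested, of which 1 (*Opalin*) had an adjusted p under 0.05 in edgeR and 13 were higher at an unadjusted p under 0.05, with sums of 22902 to 31605 normalized counts in *Fmr1* KO mice and 17975 to 26564 in WT mice. Of the astrocyte list 6 of 11 genes were tested and 2 were lower at an unadjusted p under 0.05, with sums of 7299.9 to 7897 in *Fmr1* KO mice and 8321 to 8877 in WT mice. Those 2 were the most abundant of the tested astrocyte genes and made up most of the sum. *Slc1a3* had a mean of 3688 in *Fmr1* KO and 4191 in WT mice, and *Gja1* 2589 in *Fmr1* KO and 2966 in WT mice. In the other tested astrocyte genes, *Aldh1l1*, *S100b*, *Sox9* and *Gdpd2*, the groups overlapped. The neuron list (7 of 15 tested) summed to 10975 to 11539 in *Fmr1* KO mice and 10598 to 11218 in WT mice, and the microglia list (13 of 16) to 1738 to 1999.7 in *Fmr1* KO mice and 1836 to 2086 in WT mice. The endothelial list (6 of 11) summed to 629 to 806 in *Fmr1* KO mice and 625 to 808 in WT mice. None of the neuron, microglia and endothelial markers had an unadjusted p under 0.05 in edgeR.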

How the data were processed

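Hypothalamic RNA of 3 *Fmr1* KO and 3 WT mice was hybridized to the panel (770 genes and 30 custom probes per the labels) and exported from the vendor's software by the authors. The deposited raw table holds a count per probe and lane, not normalized. The deposited value table holds a signal, the raw count multiplied by the authors by 1 factor per lane, which the methods base on housekeeping genes. The deposited percent column of probes above a threshold holds shares that 6 lanes cannot give and was not used. Groups came from the genotype labels, and the labels do not say whether the mice were littermates. The paper describes in-house breeding from pairs of *Fmr1* KO and of control mice, so genotype may coincide with breeding line or litter, which was not tested.

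Lane factors were recovered as the ratio of both tables. Raw counts of probes above 20 in at least 3 of 6 lanes (601 of 787) were fitted in edgeR 4.0.16 under R 4.3.3 (quasi-likelihood test, lane sizes from the factors), and p-values were adjusted by Benjamini-Hochberg over the tested probes. A standard error is the log2 fold change over the square root of F, and intervals are 95% with the fit's degrees of freedom. The fit draws the variance of each probe toward a trend over the tested probes, so an interval is not the spread of that gene alone. Chi-square per degree of freedom between mice of 1 group was at least 3.11, so no lane was a repeat of another. An exact permutation test of single genes was not used, since with 3 mice against 3 its smallest two-sided p is 0.1. Probes were named through RefSeq accessions (772) or by the table's name (15).

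The members and gene lists were chosen with earlier results of these data known. Named with full statistics were the 5 members with the smallest p in each direction and the one with the smallest p in each role. Other members are named with values seen beforehand. The counts of called members, their median log2 fold change and the log2 fold changes of the members named with full statistics were recomputed with lanes scaled by TMM or by median ratios, without the count filter, with only probes averaging 50 raw counts or more, in DESeq2 1.42.0, in limma 3.58.1 at pseudocounts of 1 and 10, with the methods' t-test, after background subtraction, with the replicate number as a block, and with each mouse left out. Some other genes of the same pathways are not reported here.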

Additional observations from a re-analysis of the deposited data

How the results depend on the processing

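In all 16 alternatives, no chromatin gene had an adjusted p under 0.05 (smallest 0.267, without *Fmr1* KO replicate 1), and the 12 genes named with full statistics kept their direction. Those 12 were picked by their small p in the same lanes, so the kept direction is not independent evidence. Among the other genes, *Eed*, *Kdm5a* and *Dnmt3a* changed sign under TMM and median-ratio scaling, and *Kdm4d* after background subtraction. The median log2 fold change of the chromatin genes ranged from -0.07 (without *Fmr1* KO replicate 2) to 0.04 (without *Fmr1* KO replicate 1), so its sign changed. The median over all tested probes moved in the same direction, to -0.03 and 0.07 in these fits, against 0.01 in the reported fit. Each chromatin gene median stayed within 0.08 of the reported -0.02, where 0.08 is the SD of the mice's median offsets pooled over both genotypes. The number of genes higher in *Fmr1* KO mice at an unadjusted p under 0.05, 1 in the reported fit, was 0 with no filter, among probes averaging 50 raw counts or more and in DESeq2, 3 with the methods' t-test, and 0 to 5 with 1 mouse left out. The number lower, also 1, was 0 with median-ratio scaling, with no filter and in DESeq2, 2 with the methods' t-test, and 0 to 2 with 1 mouse left out. The cause of these shifts was not tested, and the share of all tested probes at that p is not given for the alternatives. Over all tested probes the adjusted calls were 5, and 0 (the methods' t-test) to 11 (without WT replicate 3) in the alternatives.

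With the replicate number as a block (replicate block), the genes at an unadjusted p under 0.05 were 0 higher and 0 lower, and 3 of all tested probes were called. Deviations of same-numbered mice had correlations of -0.06, -0.08 and 0.10 for numbers 1, 2 and 3, within the -0.17 to 0.23 of differently numbered mice. With 3 mice per genotype these values cannot decide whether same-numbered mice shared more than a number.

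Depth limits the low genes most: at the lane with 165514 counts a raw count of 14 (*Kdm4d*) stands near the lane's own floor. Intervals rest on the spread between 3 mice per genotype only, drawn by the fit toward the trend over the tested probes.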
